A study of Homo sapiens and Mus musculus with 56 samples.

Results

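The genes described here are 40 ribosome biogenesis genes, listed by name with earlier results of these data known and followed through 5 leukaemia cell models treated with inhibitors of DOT1L and menin. Of the 40, 35 had a usable probe set among the 19775 genes of the human arrays and 38 among the 18193 genes of the mouse arrays, and every measured member passed the filter on low signals in each cell model. On the human arrays NOP56, DKC1, BOP1 and PPAN lay only on probe sets annotated to several genes, and GNL3 was not listed. On the mouse arrays Mrto4 lay on such a probe set and Npm3 was not listed.

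Ribosomes are assembled in the nucleolus. RNA polymerase I transcribes the precursor of the large ribosomal RNAs, small nucleolar ribonucleoproteins (snoRNPs) guide its chemical modification, and processing factors cut and fold it while ribosomal proteins are added, along separate pathways for the small and the large subunit. Many of the genes for these factors are known targets of the transcription factor MYC, and growing leukaemia cells express them at high levels.

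EPZ004777 inhibits DOT1L, the histone H3 lysine methyltransferase that fusions of KMT2A (also called MLL) recruit, and MI-2-2 blocks menin (MEN1), which binds the same fusion proteins. The B-precursor leukaemia lines RS4;11 and SEM carry KMT2A-AFF1, whereas REH, also of B-precursor origin, has no such fusion. In these 3 human lines the groups were 3 µM EPZ004777, 10 µM MI-2-2, the combination and DMSO, each for 6 days. KMT2A-MLLT3 is carried by MOLM-13, a human line of acute myeloid leukaemia. The mouse model was a primary culture of leukaemic cells transformed with MLL-AF9 and grown with IL-6, IL-3 and SCF. In these models the groups were 3 µM EPZ004777, 3 µM MI-2-2, the combination and DMSO, each for 4 days. The combination was read as the doses of the single compounds. Each human model is 1 cell line, and the 56 arrays (44 human, 12 mouse), described in the design text as biological replicates, formed 20 groups of 3 arrays, or of 2 arrays for RS4;11 DMSO and for SEM MI-2-2, combination and DMSO.

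Values are log2 signals of Affymetrix probe sets, made by the authors with RMA, and a difference of 1 is a 2-fold change. A gene was called when limma's Benjamini-Hochberg adjusted p, over all genes tested in that cell model (13365 to 14060), was under 0.05. B-precursor markers lay above percentile 40 of the array in RS4;11, SEM (7 of 7) and REH (6 of 7), and myeloid markers in MOLM-13 (7 of 7) and the mouse cells (6 of 6). Some markers of the other lineage did so too, 4 of 7 myeloid markers in each of RS4;11, SEM and REH. In MOLM-13 and the mouse cells 4 of 7 B-precursor markers did. Their summed level was below that of the model's own lineage in each case. The difference between 3′ and 5′ probe sets of actin, a measure of RNA integrity, was 1.12 and 1.99 on mouse combination arrays 2 and 3, against 0.38 to 0.63 on the other mouse arrays. It was 1.83 to 1.93 on the SEM MI-2-2 and combination arrays, against 2.32 to 2.48 on the SEM EPZ004777 and DMSO arrays, and 3.11 and 3.65 on REH DMSO arrays 1 and 3. Arrays of bulk RNA cannot tell apart fewer cells of a type and less RNA per cell.

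With the combination most of the ribosome biogenesis genes were called lower in the MLL-AF9 mouse cells and in MOLM-13, fewer in RS4;11 and SEM, and 0 in REH. In the mouse cells 36 of 38 members were called lower than DMSO and 0 higher, where 36.2% of all genes were called lower and 28.5% higher. In MOLM-13 31 of 35 members were called lower and 0 higher, against 25.8% of all genes lower and 23.7% higher. The median log2 change over the members was −1.58 in the mouse cells (all genes −0.10) and −0.61 in MOLM-13 (all genes 0.00). In RS4;11 10 of 35 were called lower and 0 higher, against 12.4% of all genes lower and 11.2% higher, with a median of −0.18 (all genes −0.04). In SEM 5 of 35 were called lower and 1 higher, against 15.2% of all genes lower and 14.3% higher, so the share of members called lower in SEM was close to that of all genes. In REH 0 members were called lower and 1 higher, where 2.93% of all genes were called lower and 4.1% higher. There 10 of 35 members and 3274 of all 13888 genes had an unadjusted p under 0.05 in limma. The smaller counts rest on single arrays and on the fit. The RS4;11 calls of RRS1, RRP9 and NOP14 held in 4, 6 and 7 of 18 alternative settings. In RS4;11 2 members were called without DMSO replicate 3, and in SEM 2 without combination replicate 3. In REH leaving out 1 array gave 0 to 5 called members, the most (4 higher, 1 lower) without DMSO replicate 2, and a joint fit of the 44 human arrays called 7 higher and 2 lower. Shares of all genes are not given for these alternative fits, so their counts have no background.

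Every combination array lay below every DMSO array for 36 of 38 members in the mouse cells, where this held for 36.5% of all genes. The same separation held for 32 of 35 members in MOLM-13 (all genes 30.3%), 27 in RS4;11 (29.3%), 21 in SEM (36.8%) and 2 in REH (11%). Per array, the median shift of the members from the DMSO mean was −1.65, −1.53 and −1.34 on the mouse combination arrays and −0.65, −0.58 and −0.58 on the MOLM-13 combination arrays. Every one of these 6 arrays lay far below the DMSO arrays of its model. The REH DMSO arrays spread widely around their own mean, at −0.18, 0.01 and 0.16. The mouse combination arrays differed from each other in the actin measure, and array 1, whose actin value was like that of the other mouse arrays, had the lowest median shift. The part of RNA integrity in the members' change was not tested. The mouse arrays did not split the same way for every gene. Gnl3 read 11.30, 12.30 and 12.42 with the combination and 13.31, 13.31 and 13.32 with DMSO, and Ppan read 9.09, 10.27 and 10.43 with the combination and 11.59, 11.66 and 11.60 with DMSO. For these genes array 1 was lowest, whereas for Nolc1 and Nop16, described further on, arrays 2 and 3 were lowest. With combination arrays 2 and 3 left out, the median change of the mouse members was −1.65, which rests on 1 combination array set against DMSO.

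**Figure D1:**
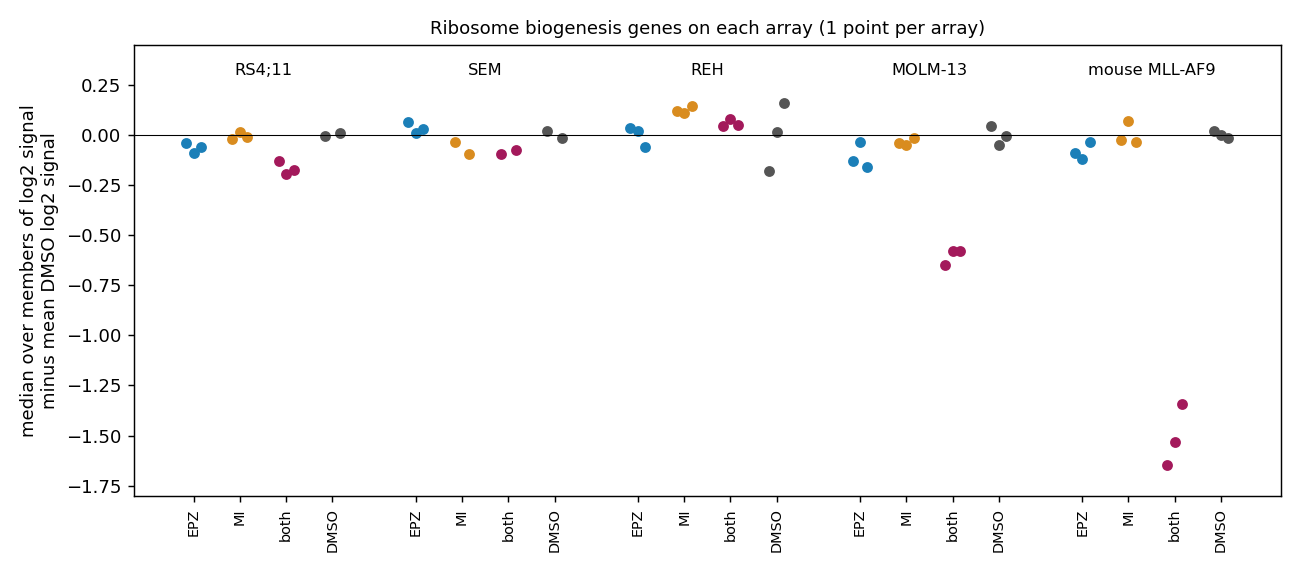
Each point is 1 array, and the vertical axis gives the median over the member genes of its log2 signal minus the DMSO mean of the cell model, for EPZ004777 (EPZ), MI-2-2 (MI), the combination (both) and DMSO. The combination arrays sit between −1.65 and −1.34 in the mouse cells and between −0.65 and −0.58 in MOLM-13, and the REH DMSO arrays range between −0.18 and 0.16.

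**Figure D2:**
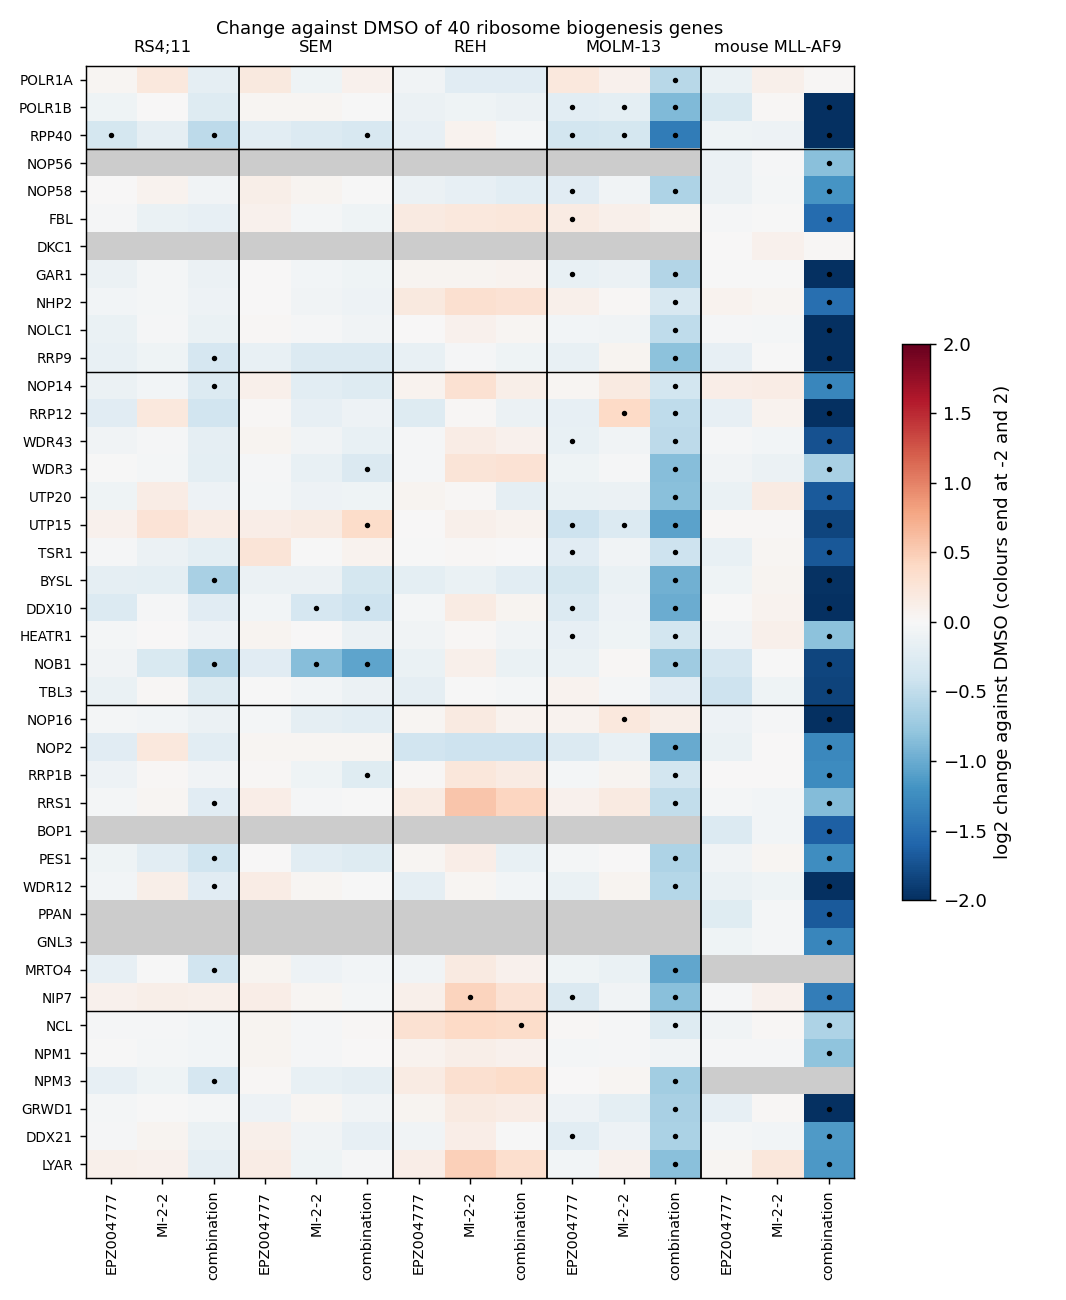
Rows are the 40 genes, grouped from top to bottom as polymerase I and RNase P, snoRNPs, small-subunit factors, large-subunit factors and other nucleolar proteins; columns are the 3 treatments of each cell model, and colour is the log2 change against DMSO. Points mark called genes and grey cells unmeasured ones. The combination columns of the mouse cells and MOLM-13 are blue in nearly every row, with 36 and 31 called genes.

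Among the genes of RNA polymerase I and RNase P, RPP40, a protein subunit of the RNase P and RNase MRP enzymes that process transfer and ribosomal RNA precursors, was lowered by the combination in 4 of the 5 models. In the mouse cells RPP40 read 7.83, 7.66 and 7.94 with the combination, 10.75, 10.66 and 10.59 with EPZ004777, 10.65, 10.59 and 10.71 with MI-2-2, and 10.84, 10.72 and 10.71 with DMSO. The combination arrays lay apart from all others, and the change was −2.94 ± 0.09 (SE; 7.69-fold lower; adjusted p = 1.86e-09). In MOLM-13 RPP40 read 10.68, 10.77 and 10.82 with EPZ004777, 10.87, 10.77 and 10.69 with MI-2-2, 9.62, 9.74 and 9.81 with the combination, and 11.24, 11.04 and 11.10 with DMSO. Here both single compounds already lay below all DMSO arrays, and the combination lay below them (−1.40 ± 0.07, 2.64-fold lower, adjusted p = 7.72e-08). In RS4;11 it read 9.12, 9.07 and 9.03 with EPZ004777, 9.27, 9.29 and 9.15 with MI-2-2, 8.87, 8.87 and 8.94 with the combination, and 9.34 and 9.50 with DMSO. The EPZ004777 change of −0.34 ± 0.07 (adjusted p = 0.0173) and the combination change of −0.53 ± 0.07 (adjusted p = 4.07e-04) both passed the test in RS4;11. In SEM RPP40 read 8.68 and 8.84 with the combination and 9.08 and 9.10 with DMSO (−0.33 ± 0.10, adjusted p = 0.0399), without overlap. With the actin value as a covariate, the SEM change was 0.19 and was not called, and the call held in 7 of 16 alternative settings. The actin values divide the SEM arrays just as treatment with MI-2-2 does, so the covariate fit cannot tell them apart. In REH the combination arrays (8.97, 9.02 and 9.03) lay inside the range of the DMSO arrays (8.63, 9.03 and 9.47).

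The large catalytic subunits of RNA polymerase I read differently in the mouse cells on the probe sets used, which were 1 of 5 for Polr1a and the only 1 for Polr1b. POLR1B read 7.68, 7.79 and 8.24 with the combination and 10.02, 9.90 and 9.87 with DMSO in the mouse cells (−2.02), whereas POLR1A read 9.58, 10.09 and 10.07 with the combination and 9.92, 9.91 and 9.87 with DMSO (0.02, not called). The POLR1A groups overlapped and the POLR1B groups were far apart. In MOLM-13 both were lower, POLR1A at 7.52, 7.66 and 7.63 with the combination and 8.29, 7.99 and 8.22 with DMSO (−0.56), and POLR1B at 11.38, 11.35 and 11.46 with the combination and 12.33, 12.22 and 12.27 with DMSO (−0.88). Neither gene was called against DMSO in RS4;11, SEM or REH.

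All snoRNP genes measured in the mouse cells other than Dkc1 were called lower with the combination (7 of 8, median −1.52), as were 5 of 6 in MOLM-13 (median −0.55). NOLC1, a chaperone of snoRNPs, read 10.90, 9.65 and 9.44 with the combination and 12.54, 12.48 and 12.56 with DMSO in the mouse cells, a change of −2.53. RRP9, a protein of the snoRNP that guides early precursor cleavage, changed by −2.22 in the mouse cells, by −0.82 in MOLM-13 and by −0.34 in RS4;11, all called lower. GAR1 and NHP2, core proteins of the H/ACA snoRNPs that guide pseudouridylation, changed by −2.13 and −1.51 in the mouse cells and by −0.59 and −0.32 in MOLM-13. NOP58, a core protein of the box C/D snoRNPs that guide methylation, changed by −1.18 in the mouse cells and −0.61 in MOLM-13, and its partner NOP56, measured only in the mouse, by −0.83.

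Fibrillarin (FBL), the methyltransferase of the box C/D particles, parted the models. In the mouse cells it read 11.67, 11.61 and 11.59 with the combination and 13.15, 13.17 and 13.14 with DMSO (−1.54 ± 0.07), while in MOLM-13 it read 13.26, 13.25 and 13.22 with the combination and 13.20, 13.20 and 13.15 with DMSO. The mouse groups were far apart, and in MOLM-13 the change of 0.06 was not called. Dyskerin (Dkc1), the pseudouridine synthase of the H/ACA particles, read 13.04, 13.06 and 13.11 with the combination and 13.05, 13.02 and 13.06 with DMSO in the mouse cells, with overlapping groups. Another Dkc1 probe set was lower (−0.38 ± 0.10), so the probe sets of Dkc1 disagree.

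The small-subunit processing factors were called lower in 12 of 12 cases in the mouse cells (median −1.79) and in 11 of 12 in MOLM-13 (median −0.62), with TBL3, a component of the early processing complex, the exception in MOLM-13 (−0.22, against −1.85 in the mouse cells). NOB1, the endonuclease that makes the final cut of the small-subunit ribosomal RNA, was the other gene called lower in 4 models. In SEM NOB1 read 10.28, 10.24 and 10.24 with EPZ004777, 9.56 and 9.71 with MI-2-2, 9.30 and 9.55 with the combination, and 10.56 and 10.41 with DMSO. MI-2-2 alone changed it by −0.85 ± 0.10 on the log2 scale (adjusted p = 0.00123) and the combination by −1.06 ± 0.10 (2.08-fold lower, adjusted p = 1.90e-04). The SEM MI-2-2 and combination arrays, which lay below all the others for NOB1, are also those with the lower actin values. NOB1 was not called with that covariate, but in SEM that fit cannot tell actin value and treatment apart. In RS4;11 NOB1 read 9.25, 9.19 and 9.64 with the combination and 9.85 and 10.05 with DMSO (−0.59 ± 0.17, adjusted p = 0.0255), close together but without overlap. In MOLM-13 it read 9.60, 9.71 and 9.67 with the combination and 10.54, 10.24 and 10.35 with DMSO (−0.72 ± 0.08). In the mouse cells it read 8.32, 8.64 and 9.14 with the combination and 10.52, 10.56 and 10.53 with DMSO (−1.83 ± 0.17, 3.57-fold lower). In REH the combination arrays (8.99, 9.11 and 9.37) fell within the wide DMSO range (8.76, 9.22 and 9.88).

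UTP15, a component of the complex that couples polymerase I transcription to early processing, moved in opposite directions in MOLM-13 and SEM. In MOLM-13 it read 10.07, 10.13 and 10.12 with EPZ004777, 10.38, 10.16 and 10.20 with MI-2-2, 9.54, 9.38 and 9.43 with the combination, and 10.56, 10.40 and 10.60 with DMSO. All treated arrays lay below all DMSO arrays, and EPZ004777 (−0.41 ± 0.07), MI-2-2 (−0.27 ± 0.07) and the combination (−1.07 ± 0.07, 2.10-fold lower) all passed the test. In SEM it read 9.81 and 9.91 with the combination and 9.44 and 9.54 with DMSO, the reverse order, a rise of 0.37 ± 0.08 (adjusted p = 0.00990). The other UTP15 probe set gave 0.00 ± 0.12 in SEM and −0.90 ± 0.10 in MOLM-13, so the rise was seen on 1 of its 2 probe sets. The mouse gene read 10.08, 9.31 and 9.64 with the combination and 11.58, 11.42 and 11.51 with DMSO.

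BYSL, bystin, which is needed to mature the small subunit, showed the largest change among the members in RS4;11, at 8.55, 8.46 and 8.82 with the combination and 9.16 and 9.34 with DMSO (−0.65 ± 0.15, adjusted p = 0.0104). It was lower in MOLM-13 too, at 8.83, 8.94 and 9.06 with the combination and 10.06, 9.67 and 9.99 with DMSO (−0.96 ± 0.16), and so was mouse Bysl, at 9.39, 9.16 and 9.43 with the combination and 11.36, 11.28 and 11.28 with DMSO (−1.98 ± 0.09). In none of these models did the groups overlap for BYSL. DDX10, an RNA helicase of the small-subunit pathway, read 9.31 and 9.31 with MI-2-2, 9.23 and 9.22 with the combination, and 9.66 and 9.63 with DMSO in SEM. Both changes passed the test there, at −0.34 ± 0.07 and −0.42 ± 0.07, but neither did with the actin covariate or with means of probe sets, and the MI-2-2 call was lost in 8 of 16 alternative settings. The actin covariate divides the SEM arrays as MI-2-2 does and cannot be told apart from it. It changed by −0.99 in MOLM-13 and by −2.49 in the mouse cells with the combination. The scaffold proteins UTP20, HEATR1, WDR3, WDR43 and NOP14, the export factor RRP12 and the GTPase-like factor TSR1 had changes between −0.85 and −0.36 in MOLM-13 with the combination and between −2.11 and −0.65 in the mouse cells. NOP14 was also lower in RS4;11 (−0.27) and WDR3 in SEM (−0.29).

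**Figure D3:**
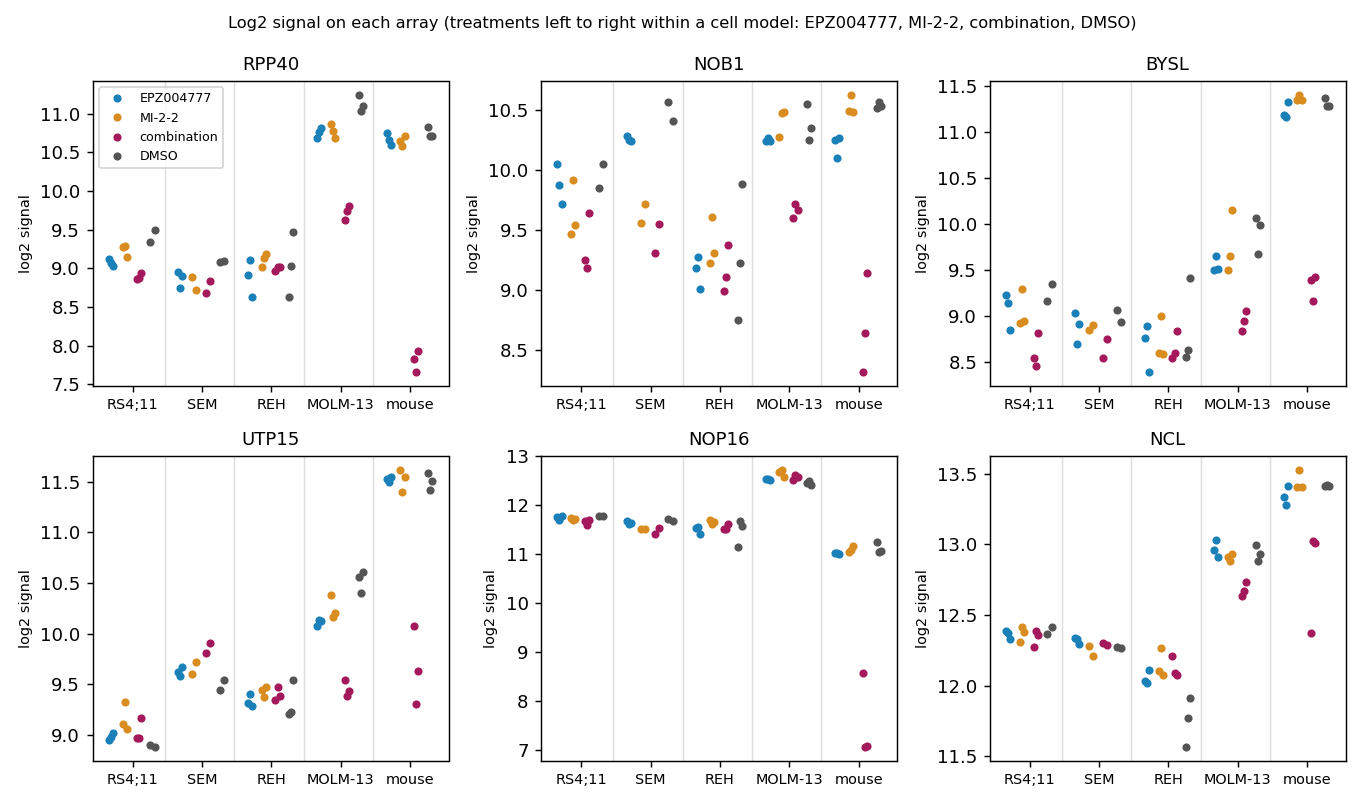
Log2 signal on every array for RPP40, NOB1, BYSL, UTP15, NOP16 and NCL, 1 point per array, with treatments left to right within each cell model. Combination arrays of RPP40, NOB1 and BYSL lie below DMSO in RS4;11, SEM, MOLM-13 and the mouse cells (BYSL in SEM not called), UTP15 lies above DMSO in SEM, and NOP16 is low only on the mouse combination arrays (8.57, 7.06 and 7.09).

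Large-subunit factors were called lower in 10 of 10 cases in the mouse cells (median −1.34) and 7 of 8 in MOLM-13 (median −0.59). NOP16, a nucleolar protein of the large-subunit pathway, had the largest fall among the members in the mouse cells. It read 8.57, 7.06 and 7.09 with the combination, 11.02, 11.02 and 11.00 with EPZ004777, 11.04, 11.08 and 11.16 with MI-2-2, and 11.24, 11.05 and 11.07 with DMSO (−3.54 ± 0.32, 11.7-fold lower, adjusted p = 3.34e-06). The combination arrays lay far below all others and also spread most, the lowest being arrays 2 and 3, which have the higher actin values. In MOLM-13 the probe set used for NOP16, which ends in _x_at, was not called (0.12 ± 0.05), at 12.52, 12.62 and 12.57 with the combination and 12.45, 12.48 and 12.41 with DMSO. Of its other probe sets in MOLM-13, the one that ends in plain _at gave −0.97 ± 0.09, and of a pair ending in _s_at, 1 was also lower and the other gave 0.15 ± 0.07. So NOP16 was lower in MOLM-13 on some probe sets and not on others, and those with the suffix _s_at or _x_at may bind other transcripts.

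MRTO4, which takes part in building the stalk of the large subunit, read 9.33, 9.66 and 9.39 with the combination and 10.49, 10.49 and 10.51 with DMSO in MOLM-13 (−1.04 ± 0.08, 2.05-fold lower), without overlap. It was also lower in RS4;11 (−0.38). NOP2, a ribosomal RNA methyltransferase, changed by −1.01 in MOLM-13 and by −1.30 in the mouse cells. The PeBoW complex, which matures the large-subunit RNAs, consists of PES1, BOP1 and WDR12. PES1 and WDR12 were lower in RS4;11 (−0.41 and −0.23), MOLM-13 (−0.62 and −0.56) and the mouse cells (−1.24 and −2.08), and BOP1, measured only in the mouse, changed by −1.63. NIP7, a processing factor of the large-subunit precursor, changed by −0.84 in MOLM-13 and by −1.38 in the mouse cells. GNL3, the GTPase nucleostemin, and PPAN, a factor of early large-subunit assembly, were measured only in the mouse, where they changed by −1.31 and −1.68. RRS1, which brings ribosomal proteins to the early large-subunit particle, was lower in RS4;11 (−0.23), MOLM-13 (−0.48) and the mouse cells (−0.87), and RRP1B in SEM (−0.24), MOLM-13 (−0.37) and the mouse cells (−1.26).

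Of the abundant nucleolar proteins, nucleophosmin (NPM1), a histone and ribosome chaperone, read 14.20, 14.20 and 14.19 with the combination and 14.24, 14.23 and 14.31 with DMSO in MOLM-13 (−0.06, not called). Its mouse counterpart read 13.65, 13.28 and 13.18 with the combination and 14.23, 14.14 and 14.14 with DMSO (−0.80), with groups well apart. Nucleolin (NCL), which binds the ribosomal RNA precursor, was called lower, by a log2 change of −0.26, in MOLM-13 and by −0.61 in the mouse cells. In REH, NCL was the member called higher with the combination, at 12.21, 12.09 and 12.07 with the combination and 11.56, 11.77 and 11.91 with DMSO (0.37 ± 0.10, adjusted p = 0.0441), a call that was lost in 16 of 20 alternative settings. GRWD1, a histone chaperone that also binds ribosomal proteins, read 8.96, 9.36 and 9.73 with the combination and 11.92, 11.96 and 11.77 with DMSO in the mouse cells (−2.54 ± 0.18, 5.80-fold lower) and changed by −0.66 in MOLM-13. The RNA helicase DDX21, the nucleolar protein LYAR and, on the human arrays, the chaperone NPM3 had changes between −0.84 and −0.63 in MOLM-13. In the mouse cells DDX21 and LYAR changed by −1.13 and −1.15, and NPM3 was also lower in RS4;11 (−0.33).

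With either compound alone, fewer members were called in MOLM-13 and the mouse cells. With EPZ004777 alone, MOLM-13 had 11 members called lower and 1 higher (all genes 12.5% lower, 15.3% higher), with a median of −0.13. The falls ranged between 0.14 and 0.41 on the log2 scale, and the member called higher was FBL, at 13.37, 13.33 and 13.32 with EPZ004777 and 13.20, 13.20 and 13.15 with DMSO. NIP7 was among those lower (−0.28 ± 0.07, adjusted p = 0.0162). With MI-2-2 alone, MOLM-13 had 3 members called lower, POLR1B, RPP40 and UTP15, and 2 higher, NOP16 and RRP12 (all genes 8.36% lower, 10.2% higher). RRP12 read 9.39, 9.51 and 9.63 with MI-2-2, 8.48, 8.76 and 8.59 with the combination, and 9.27, 9.04 and 9.04 with DMSO. On this probe set it thus lay above DMSO with MI-2-2 (0.39 ± 0.09, adjusted p = 0.0152) and below DMSO with the combination. RRP12 has 5 human probe sets, and the one used ends in _s_at. The MI-2-2 call was lost in 4 of 19 alternative settings, means of probe sets among them. Over the settings the change ranged between 0.09 and 0.47. Without EPZ004777 replicate 1 the EPZ004777 count in MOLM-13 was 6, and without DMSO replicate 3 the MI-2-2 count was 1.

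For the mouse cells limma called 0 of 38 members with EPZ004777 (all genes 1.38% lower, 4.22% higher) and 0 with MI-2-2 (2.02% lower, 3.24% higher). Its unadjusted p was under 0.05 for 2 members with EPZ004777 (1912 of all 13365 genes) and 0 with MI-2-2 (1927 genes). Of the 38, 32 had a negative change with EPZ004777, with a median of −0.08, against 7670 of all 13365 genes and a median of −0.03. In RS4;11 RPP40 was the member called lower with EPZ004777 (all genes 2.08% lower, 4.51% higher), and 0 were called with MI-2-2 (6.84% lower, 5.89% higher). With MI-2-2 there, 3 members and 3685 of all 13867 genes had an unadjusted p under 0.05 in limma. In SEM 0 were called with EPZ004777 (4.12% lower, 4.55% higher), where 3 members and 3562 of all 13967 genes had an unadjusted p under 0.05 in limma. NOB1 and DDX10 were called lower with MI-2-2 in SEM (8.47% lower, 9.32% higher). In REH 0 were called with EPZ004777 (1.13% lower, 2.82% higher), where 2 members and 2213 of all 13888 genes had an unadjusted p under 0.05 in limma. With MI-2-2 in REH, NIP7 was called higher, at 10.39, 10.28 and 10.36 with MI-2-2 and 9.80, 10.02 and 9.87 with DMSO (0.45 ± 0.10, adjusted p = 0.0489; all genes 0.85% lower, 0.396% higher). That call was lost in 15 of 20 alternative settings, and the joint fit of the human arrays called 10 members higher and 1 lower with MI-2-2 in REH. The share of all genes called in the joint fit is not given, so its counts have no background.

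The interaction, the combination change minus the sum of the single-compound changes, says whether the combination went beyond that sum on the log2 scale. Among the mouse genes it was called negative for 35 of 38 members and positive for 0, against 25.9% and 22.3% of all genes, with a median of −1.47. Nop56 (−0.69), Polr1a and Dkc1 were the members not called. In MOLM-13 it was called negative for 28 of 35 and positive for 0, against 8.78% and 4.07% of all genes, with a median of −0.48. The most negative values in MOLM-13 were those of LYAR and POLR1A (−0.87 each) and MRTO4 (−0.83), and FBL, TSR1, BYSL, HEATR1, TBL3, NOP16 and NPM1 were not called (−0.47 to 0.01). RPP40, which each compound lowered alone in MOLM-13, had an interaction of −0.68 ± 0.10. NOP16 in the mouse cells had one of −3.41 ± 0.45.

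The interaction was called for 0 members in RS4;11 (all genes 1.96%), SEM (1.01%) and REH (0%). Its unadjusted p in limma was under 0.05 for 4, 0 and 1 members. The counts over all genes were 2117 of 13867, 1845 of 13967 and 731 of 13888. The combination was called lower than EPZ004777 for 36 of 38 members in the mouse cells (all genes 34.8%) and 31 of 35 in MOLM-13 (18.9%), and lower than MI-2-2 for 36 (33.8%) and 31 (21.7%). In RS4;11 it was called lower than EPZ004777 for 4 members (9.56%), namely WDR3, BYSL, NOB1 and LYAR, and lower than MI-2-2 for 9 (3.91%). In SEM 8 members differed between combination and EPZ004777 (26.9%), 7 lower and UTP15 higher, and 0 between combination and MI-2-2 (4.72%). Between combination and MI-2-2, 1 member and 2554 of all 13967 genes had an unadjusted p under 0.05 in limma. In REH 0 differed from EPZ004777 (0.108%) or MI-2-2 (1.81%). An unadjusted p under 0.05 in limma was found for 2 members against EPZ004777 (1010 of all 13888 genes) and 0 against MI-2-2 (1155 genes).

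**Figure D4:**
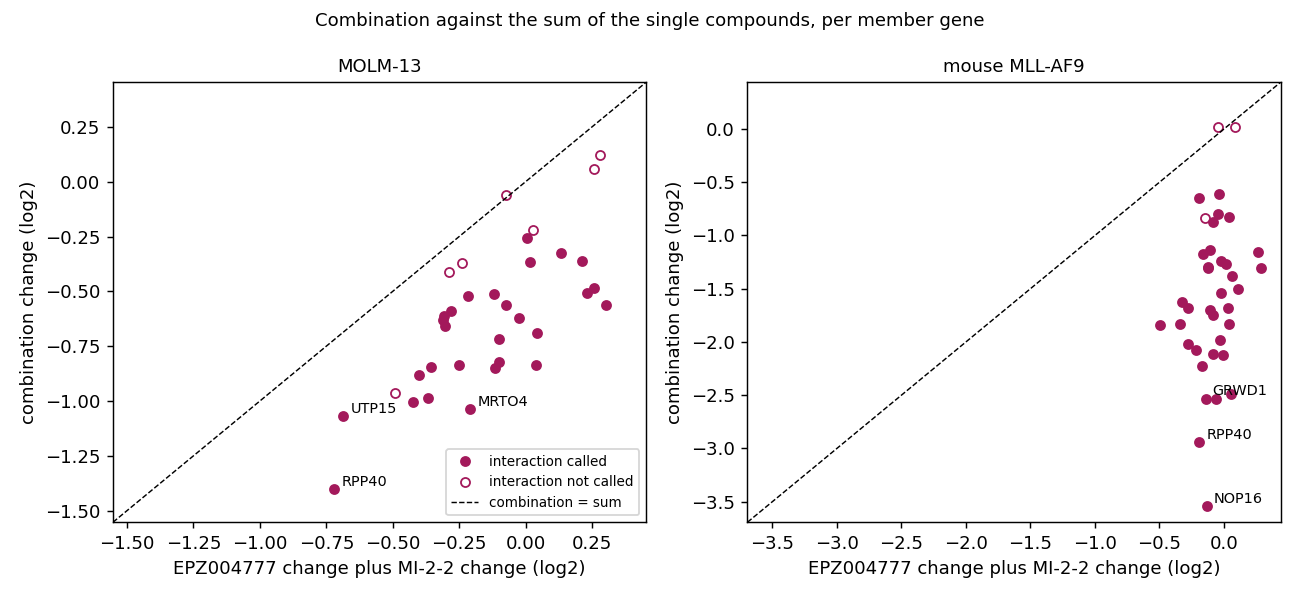
Each point is 1 member gene, with the sum of the EPZ004777 and MI-2-2 log2 changes on the horizontal axis and the combination log2 change on the vertical axis; filled points have a called interaction and the dashed line marks equality. Most points lie below the line, with 28 of 35 filled in MOLM-13 and 35 of 38 in the mouse cells. The panels have different scales.

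Over the 5 models, RPP40 and NOB1 were called lower with the combination in 4, another 9 members in 3, 19 in 2, 9 in 1 and DKC1 in 0, counting the members in the models where each was measured. For comparison, the combination lowered 36.2% of all mouse genes tested and 25.8% of all genes tested in MOLM-13, by the same call. How many of all genes were called lower in several models was not counted, so these tallies have no background share. Among the 33 members measured in both MOLM-13 and the mouse cells, 28 were called lower in both. The sizes of change were weakly related across these genes (Pearson 0.144, Spearman 0.21, n = 33 genes, given as a description across genes, each measured with a different probe set in each species). Some genes ranked differently: WDR3 changed by −0.85 in MOLM-13 and by −0.65 in the mouse cells, and NOP16 by −3.54 in the mouse cells while its value in MOLM-13 was 0.12 and not called. That NOP16 value is from the _x_at probe set, and other NOP16 probe sets were lower in MOLM-13, as described above.

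RS4;11, SEM and REH received the same doses for the same time, so their changes could be tested against each other. The fusion cannot be told apart from other differences between these lines, and limma's spread is that between arrays, not between lines. For the combination, 11 of 35 members had a called difference between the mean change of RS4;11 and SEM and the change in REH, all 11 lower in the KMT2A-AFF1 lines and 0 higher, against 10.6% of all genes lower and 10% higher. They included NOB1 (−0.70), NPM3 (−0.62), RRS1 (−0.55) and WDR3 (−0.54). For MI-2-2 the numbers were 7 lower and 1 higher, NOP2 (0.54), against 5.73% of all genes lower and 7.93% higher. For EPZ004777 they were 0 and 0, against 2.77% and 2.49%. REH DMSO arrays 1 and 3 carry high actin values. With all arrays the median difference over the members was −0.23 for the combination and −0.17 for MI-2-2. Without REH DMSO arrays 1 and 3 it was −0.17 for the combination (all genes −0.04) and −0.13 for MI-2-2 (all genes −0.01). For EPZ004777 it was then −0.01 (all genes −0.045). Every REH change in that fit rests on 1 DMSO array. For most of these genes REH itself lay above DMSO without being called, as for RRS1 (0.43) and NPM3 (0.36).

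With DMSO, the levels of 35 of 35 members differed between the 4 human lines by limma's moderated F test, but so did those of 96% of all genes, and MOLM-13 looks normalized apart from the other lines (array medians near 6.2, against near 5.6). Over RS4;11, SEM and REH alone, 26 of 35 differed, against 68.3% of all genes, a similar share. RRS1 differed most, at 10.4 in RS4;11, 10.2 in SEM and 8.11 in REH.

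A list of other ribosome biogenesis genes, of which 99 human and 101 mouse genes were tested, is described beside the members. With the combination 84 of 101 were called lower and 1 higher in the mouse cells (median −1.40), with Rcl1 (−3.39), Noc3l (−3.03) and Rrp15 (−2.88) lowest and Utp3 higher (0.64). In MOLM-13 84 of 99 were called lower and 0 higher (median −0.40), with DDX31 (−1.24), NOL6 (−1.20) and ZNF593 (−1.12) lowest. In RS4;11 30 were called lower and 1 higher (median −0.18) and in SEM 20 and 4 (median −0.10), and NLE1, POLR1E and WDR74 fell most in both, by −1.02, −0.55 and −0.53 in RS4;11 and −0.83, −0.61 and −0.60 in SEM. In REH 2 were called lower and 2 higher (median 0.00). The background shares of all genes are those given above for each model.

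The genes of the cytosolic ribosomal proteins, which these factors assemble with ribosomal RNA, were not called against DMSO on the human arrays. With the combination limma called 0 of 51 in each of MOLM-13, RS4;11, SEM and REH, and 0, 0, 1 and 0 had an unadjusted p under 0.05. Over all genes that held for 7666 of 14060, 4994 of 13867, 5760 of 13967 and 3274 of 13888. Against MI-2-2 alone, 2 of 51 were called lower with the combination in MOLM-13, where 21.7% of all genes were. Their median log2 signal with DMSO was 14.0 to 14.5 on the human arrays, and whether signals that high are compressed was not tested. In the mouse cells 24 of 41 were called lower and 0 higher (median −0.27), against 36.2% of all genes lower and 28.5% higher. Rpl14 (−2.18), Rpl12 (−1.89) and Rps27 (−1.03) were lowest.

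**Figure D5:**
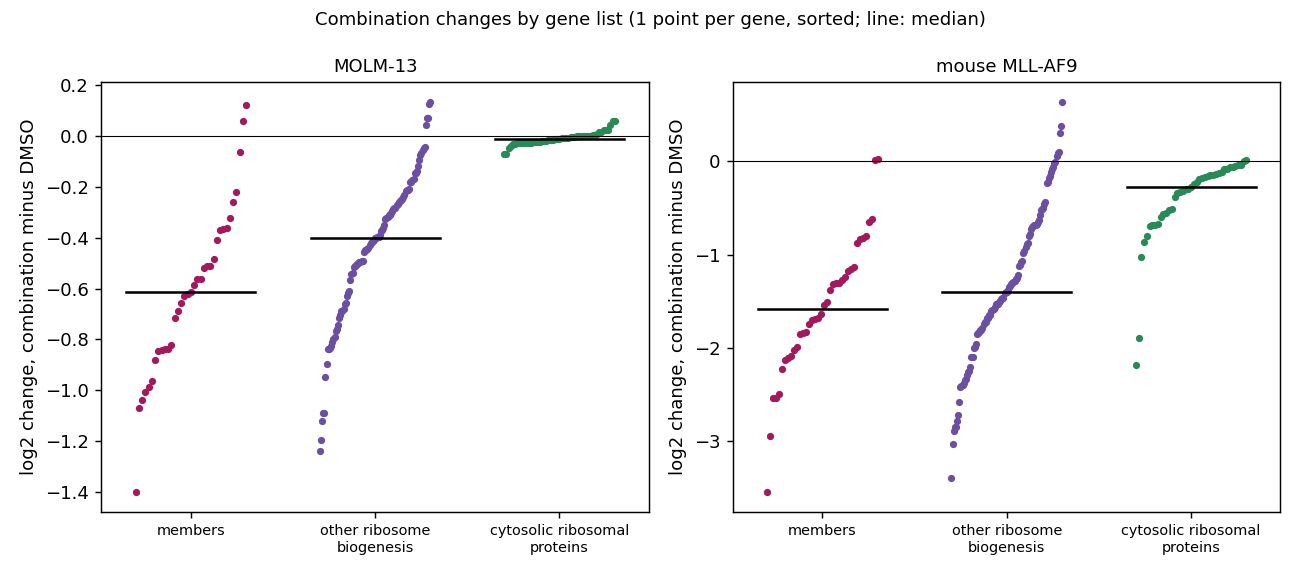
Each point is 1 gene, sorted by its log2 change for combination minus DMSO within a list, and the bar is the list's median. In MOLM-13 the medians of the members and of the other ribosome biogenesis genes lie at −0.61 and −0.40 and the ribosomal protein genes lie close to 0; in the mouse cells the first medians are −1.58 and −1.40 and that of the ribosomal protein genes is −0.27.

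MYC itself, the factor known to drive many of these genes, was called lower with the combination in the mouse cells, MOLM-13, SEM and RS4;11. Its change was −2.09 ± 0.14 in the mouse cells, −0.95 ± 0.07 in MOLM-13, −1.18 ± 0.13 in SEM and −0.55 ± 0.12 in RS4;11, and −0.03 ± 0.18 in REH, where it was not called. The share of members called lower with the combination in SEM, 14.3%, was close to the 15.2% of all genes. MYC was lower in SEM with MI-2-2 alone as well (−1.03 ± 0.13). There 2 members were called lower (5.71%, against 8.47% of all genes). In MOLM-13 it stood at −0.03 with EPZ004777, where 11 of 35 members were called lower (31.4%, against 12.5% of all genes), and at 0.05 with MI-2-2, where 3 members were called lower. Its interaction in MOLM-13 was −0.97 ± 0.09. Of the repressors that compete with MYC for MAX, MXD1 rose by 2.64 and MXD3 by 1.46 on the log2 scale in the mouse cells, MXD3 rose by 1.20 in MOLM-13, and MXD1 changed by −0.56 in RS4;11 and −0.51 in SEM. The part of MYC in the members' change was not tested.

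Markers of other cell types differed from DMSO as well, in REH too, and so did proliferation genes in several models. Of 18 proliferation genes, 15 were called higher and 1 lower with the combination in MOLM-13 (median 0.34), against 23.7% and 25.8% of all genes. In the mouse cells 1 of 17 was called higher and 8 lower (median −0.24), against 28.5% and 36.2% of all genes. In REH 1 of 18 was called higher and 0 lower, against 4.1% and 2.93% of all genes. In SEM 7 of 18 were called higher and 0 lower (median 0.21), against 14.3% and 15.2% of all genes. In RS4;11 1 of 18 was called higher and 2 lower, against 11.2% and 12.4%. With EPZ004777 alone in MOLM-13, 16 of 18 were called higher and 0 lower, against 15.3% and 12.5% of all genes. With MI-2-2 alone there, 0 were called higher and 1 lower. The summed level of the myeloid markers was 14.996 to 15.274 on the mouse combination arrays against 13.309 to 13.970 with DMSO, 15.6 to 15.7 against 14.8 to 14.9 in MOLM-13, and 11.6 to 11.7 against 7.78 to 7.79 in SEM. Of markers of fibroblasts and epithelium, Col1a1 read 10.9 to 11.7 on the mouse combination arrays against 4.64 to 5.25 with DMSO and Cdh1 8.42 to 8.67 against at most 5.17, while Col1a2 and Col3a1 reached at most 4.20 with the combination. The summed level of that list was 11.3 to 11.9 with the combination and 7.86 to 8.13 with DMSO, with 0 of 6 markers above percentile 40 on every array. The summed level of T cell markers was 10.1 to 11.1 with the combination and 8.30 to 8.76 with DMSO in the mouse cells, with 1 of 5 above that percentile on every array, and 11.1 to 11.4 against 9.28 to 9.64 in MOLM-13, also 1 of 5. It was higher with the combination in the B-precursor lines too, at 8.61 to 9.11 against 6.50 to 6.66 in RS4;11, 7.77 to 8.17 against 6.22 to 6.31 in SEM, and 8.47 to 8.75 against 6.76 to 7.34 in REH, where 0 members were called lower. The T cell marker that rose most was CD28 in RS4;11 (at least 8.41, against at most 5.24 with DMSO) and SEM (7.18 against 4.32). In REH it was TRAT1 (at least 8.17, against at most 6.61). CD3D and CD3E reached at most 4.87 with the combination in these 3 lines. The fibroblast and epithelial list read 8.87 to 8.95 with the combination and 6.82 to 6.98 with DMSO in SEM, 8.43 to 8.63 and 7.88 to 8.11 in REH, 7.64 to 7.90 and 7.22 to 7.37 in RS4;11, and 9.17 to 9.36 and 9.11 to 9.17 in MOLM-13. The gene of that list that rose most in SEM was COL1A1, at least 8.459 with the combination and at most 5.514 with DMSO. The part of these markers in the members' change was not tested. Of the inhibitors' targets, DOT1L and MEN1 were not called with the combination in any human model, and mouse Dot1l was called lower (adjusted p = 0.00403).

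Because the members moved together, the 250 bases before the annotated start were read for 34 of the 40 members that the RefSeq promoter table (GRCh38.p14) holds. They were searched on both strands for CACGTG, the E-box that MYC and MAX bind, and for CCGGAAG, a motif of ETS-family factors. CACGTG occurred in 1 of 34 windows, that of UTP20, or 2.94%, against 8.77% of the genes tested in MOLM-13, 15.91% of the other ribosome biogenesis genes and 4.92% of the ribosomal protein genes (6.49% of all 27305 promoters in the table). CCGGAAG occurred in 10 of 34 (29.41%), those of DDX21, FBL, GAR1, GRWD1, NIP7, NOP16, POLR1B, RRP9, TSR1 and WDR3, against 14.85% of the genes tested in MOLM-13, 31.82% of the other ribosome biogenesis genes and 29.51% of the ribosomal protein genes (8.82% of all promoters). Members with and without CCGGAAG had similar median changes with the combination in MOLM-13, −0.64 (n = 10) and −0.66 (n = 20). Over the mouse genes, read against these human windows, the medians were −1.86 (n = 10) and −1.41 (n = 22). These letters are descriptions of a short window and say nothing about whether a factor binds.

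The windows printed, 5′ to 3′ on the gene's strand with motif letters in capitals, are those of RPP40 and NOB1, which fell in the most models and hold neither motif, of UTP20 with its E-box 10 bases before the start, and of NOP16, the member with the largest change in the mouse cells, with overlapping CCGGAAG matches, 1 on each strand, 19 and 16 bases before the start. RPP40 is chr6:5004038-5004287 (minus strand), NOB1 chr16:69754927-69755176 (minus), UTP20 chr12:101279855-101280104 (plus) and NOP16 chr5:176388599-176388848 (minus).
RPP40: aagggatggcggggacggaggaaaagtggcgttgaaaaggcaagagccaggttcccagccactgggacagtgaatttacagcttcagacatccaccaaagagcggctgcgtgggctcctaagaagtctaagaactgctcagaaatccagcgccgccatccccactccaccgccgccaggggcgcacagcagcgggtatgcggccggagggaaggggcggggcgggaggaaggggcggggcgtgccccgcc
NOB1: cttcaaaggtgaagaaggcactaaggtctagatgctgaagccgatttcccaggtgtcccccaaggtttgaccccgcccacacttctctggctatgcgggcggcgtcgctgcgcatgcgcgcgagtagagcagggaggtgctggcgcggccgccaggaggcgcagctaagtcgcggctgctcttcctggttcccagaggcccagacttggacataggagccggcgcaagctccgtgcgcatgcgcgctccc
UTP20: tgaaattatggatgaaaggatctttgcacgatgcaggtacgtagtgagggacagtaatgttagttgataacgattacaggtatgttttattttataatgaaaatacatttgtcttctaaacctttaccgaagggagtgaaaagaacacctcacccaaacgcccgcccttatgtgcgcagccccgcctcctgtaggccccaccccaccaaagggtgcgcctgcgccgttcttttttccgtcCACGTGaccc
NOP16: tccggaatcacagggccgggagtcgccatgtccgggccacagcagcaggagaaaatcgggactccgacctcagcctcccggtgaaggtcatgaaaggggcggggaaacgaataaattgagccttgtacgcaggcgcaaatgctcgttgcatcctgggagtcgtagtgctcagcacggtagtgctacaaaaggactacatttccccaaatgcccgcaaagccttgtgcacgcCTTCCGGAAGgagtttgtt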

How the data were processed

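Log2 signals per probe set were used as deposited. Per the submitters' processing notes, RMA (affy, R 3.0.2) produced them. Probe sets were joined to symbols through the platform annotation, human symbols were updated by Entrez identifier, and probe sets with several symbols were left out. Each gene was read on its brightest probe set by mean signal within a species. Of the measured members, 15 of 35 human and 12 of 38 mouse genes were read on probe sets ending in _s_at, _x_at or _a_at, which may bind other transcripts. Genes above percentile 40 of their array on at least 2 arrays were tested per cell model in limma 3.58.1 (R 4.3.3), with 4 group coefficients sharing a spread and Benjamini-Hochberg adjustment over all genes. The fit was tested on simulated data. Promoter windows are RefSeq's. The number of arrays limits the precision. The members and lists were chosen with earlier results of these data known, and the genes described per array were those with the 3 largest called changes per contrast or called in most models, besides a few chosen after their values were seen. Alternatives were no filter, quantile normalization again, means of probe sets, a replicate block, an actin covariate, a joint human fit and leaving out arrays. Added after seeing the data was the DMSO level test without MOLM-13. Same-numbered arrays deviated together (correlation over 0.1) in 2 of 15 pairs in RS4;11, 2 of 10 in SEM, 5 of 18 in REH, 3 of 18 in MOLM-13 and 9 of 18 in the mouse cells. As this held for every pair in no model, the numbers were not taken to pair arrays, though so strict a rule could miss a partial pairing. In the mouse cells the median correlation was 0.10 for same-numbered arrays and −0.07 for others. In every human line same-numbered arrays had the lower median.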

Additional observations from a re-analysis of the deposited data

Results flagged for a closer look

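Members whose treatment effect differed between the KMT2A-AFF1 lines (mean of RS4;11 and SEM) and REH by limma's test of that difference are listed with its size on the log2 scale. For MI-2-2 they were FBL (−0.306), NOP14 (−0.442), WDR3 (−0.349), NOP2 (0.541), RRS1 (−0.54), NCL (−0.422), NPM3 (−0.435) and LYAR (−0.475). For the combination they were FBL (−0.345), NHP2 (−0.395), NOP14 (−0.384), WDR43 (−0.25), WDR3 (−0.537), NOB1 (−0.697), RRP1B (−0.319), RRS1 (−0.554), NCL (−0.386), NPM3 (−0.618) and LYAR (−0.432). FBL, NOP14, WDR3, RRS1, NCL, NPM3 and LYAR appear for both treatments, which share the DMSO arrays. REH DMSO arrays 1 and 3 had the highest actin 3′ minus 5′ values, and their part in these differences was not tested beyond the medians without them given above.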

How the results depend on the processing

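The combination counts in MOLM-13 and the mouse cells stayed within 1.5 times under every alternative run. Only members with the 3 largest changes or called lower in at least 3 models were followed singly through the alternatives. All of these kept their combination call in MOLM-13 and the mouse cells, and the other called members were not followed singly. Smaller counts moved. Without the filter RS4;11 combination had 6 and REH 0 for MI-2-2 and 0 for the combination, the last 2 also after quantile normalization again. Means of probe sets gave SEM MI-2-2 1, REH combination 0 and MOLM-13 MI-2-2 3. With replicate number as a block, the counts were 6 (RS4;11 combination), 1 (RS4;11 combination minus EPZ004777), 1, 3 and 4 (SEM MI-2-2, combination, combination minus EPZ004777) and 0 and 0 in REH; it moved no other count over 1.5 times. With the actin covariate RS4;11 had 0 for EPZ004777, 5 for the combination and 2 for combination minus EPZ004777, SEM 0 for all of MI-2-2, combination and combination minus EPZ004777, REH 0 and 0, MOLM-13 EPZ004777 4 and mouse EPZ004777 2, and RPP40 in SEM reversed to 0.19 (adjusted p 0.958). As the actin values divide the SEM arrays just as MI-2-2 does, the SEM losses cannot be told apart from removing the treatment effect. In the joint fit of 44 human arrays RS4;11 had 0 (EPZ004777), 1 (MI-2-2) and 4 (combination minus MI-2-2), SEM MI-2-2 1, REH 1, 11, 9 and 1 (EPZ004777, MI-2-2, combination, combination minus EPZ004777) and MOLM-13 6 and 2. Leaving out the arrays that stand apart leaves 1 array in REH DMSO and in the mouse combination, so counts of those fits are not given. By line, RS4;11 minus REH gave 4 for MI-2-2 and SEM minus REH 6 for the combination. Leaving out 1 array gave, for EPZ004777, MI-2-2 and the combination, 0 to 2, 0 to 0 and 2 to 11 in RS4;11 (2 without DMSO replicate 3), 0 to 1, 1 to 2 and 2 to 7 in SEM (2 without combination replicate 3), 0 to 1, 0 to 4 and 0 to 5 in REH, 6 to 13, 1 to 7 and 31 to 32 in MOLM-13 (6 without EPZ004777 replicate 1, 1 without DMSO replicate 3), and 0 to 1, 0 to 0 and 36 to 36 in the mouse cells. The interaction gave 22 to 28 in MOLM-13 and 33 to 36 in the mouse cells and 0 elsewhere. Combination minus EPZ004777 gave 0 to 6 in RS4;11, 2 to 7 in SEM, 29 to 32 in MOLM-13, 35 to 36 in the mouse cells and 0 in REH, and combination minus MI-2-2 5 to 11, 0, 31, 36 and 0. Of 938 settings over the 51 results followed singly, 792 kept their call, 145 lost it and 1 reversed. Among called members, 2 took another sign in an alternative. Of the RS4;11 combination calls, RRS1 lost it in 14 of 18, RRP9 in 12, NOP14 in 11, PES1 in 9, WDR12 in 6, NOB1 in 5 (highest adjusted p 0.177), BYSL in 1 and RPP40 in 0. Of those in SEM, RPP40 kept it in 7 of 16, and RRP1B lost it in 8, WDR3 in 5, UTP15 in 4 and DDX10 in 2, or in 8 for MI-2-2. NIP7 and NCL in REH lost it in 15 and 16 of 20.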
